A study of Mus musculus with 10 samples.

Results

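H3K4me1, monomethylation of histone H3 at lysine 4, was mapped by chromatin immunoprecipitation and sequencing (ChIP-seq) in mouse cortical neurons with and without KCl depolarization, and the 2 resulting lists of enriched regions were compared. All regions on chromosomes 1 to 19 were used, 189576 from untreated neurons and 190732 from neurons given KCl. These make 380308 of the 643019 regions in the 8 lists of the study, which also hold the histone mark H3K27ac, the TFIIIC subunit Gtf3c1 and the RNA polymerase III subunit Rpc155. The cells were primary cortical neurons of strain C57BL/6J on day 6 in vitro, kept overnight in medium with serum reduced to 3%. One group then had no treatment and the other received 50 mM KCl for 45 min. The labels name no genotype or transgene. Total chromatin input was the study's control and was not analysed here. There was 1 list per condition. The design text gives 3 biological replicates per condition, and the sources used here do not say whether they were pooled. All differences below are therefore between 2 lists, with no replicate check and no test, and no library depth is known.

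H3K4me1 is laid down mainly by the methyltransferases Kmt2c and Kmt2d. It marks enhancers, both primed ones and, together with H3K27ac, active ones, and it flanks active promoters, where the start site itself carries trimethylated H3K4 in its place. In neurons, depolarization opens voltage-gated calcium channels and switches on immediate-early genes such as Fos through enhancers that already carry the mark.

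Of 38 start sites of immediate-early genes, 4 were covered in the KCl list only and 2 in the untreated list only. These shares are near those of all start sites (7.81% and 3.79%). The 250 bases before these 6 sites are shown because the start site was covered in 1 list only, as described further on. Only at Homer1 and Fosl2 was the covering region itself absent from the other list. At the other sites it was a shared region that reached over the start site in 1 list only. Sequences are from RefSeq (GRCm38.p6), 5′ to 3′ on the gene's strand, and capitals mark CG dinucleotides. The start site was covered in the KCl list only for Junb (chr8:84978749-84978998, minus strand), Dusp1 (chr17:26508473-26508722, minus), Dusp5 (chr19:53528895-53529144, plus) and Homer1 (chr13:93303507-93303756, plus). It was covered in the untreated list only for Fos (chr12:85473640-85473889, plus) and Fosl2 (chr5:32136222-32136471, plus).
Junb: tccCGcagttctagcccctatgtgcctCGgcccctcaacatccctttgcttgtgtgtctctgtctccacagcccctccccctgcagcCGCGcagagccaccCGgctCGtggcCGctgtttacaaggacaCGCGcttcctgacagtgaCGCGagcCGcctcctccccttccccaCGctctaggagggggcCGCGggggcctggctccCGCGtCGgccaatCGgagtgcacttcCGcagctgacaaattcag
Dusp1: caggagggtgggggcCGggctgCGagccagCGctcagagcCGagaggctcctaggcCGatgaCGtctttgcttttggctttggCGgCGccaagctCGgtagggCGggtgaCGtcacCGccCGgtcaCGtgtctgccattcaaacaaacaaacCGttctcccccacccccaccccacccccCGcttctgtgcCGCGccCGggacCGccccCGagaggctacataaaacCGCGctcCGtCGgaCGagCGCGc
Dusp5: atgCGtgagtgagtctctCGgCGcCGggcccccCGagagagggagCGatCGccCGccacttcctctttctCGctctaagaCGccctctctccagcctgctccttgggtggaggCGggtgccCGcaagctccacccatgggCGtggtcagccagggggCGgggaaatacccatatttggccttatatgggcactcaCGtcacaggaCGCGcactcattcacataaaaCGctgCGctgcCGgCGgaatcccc
Homer1: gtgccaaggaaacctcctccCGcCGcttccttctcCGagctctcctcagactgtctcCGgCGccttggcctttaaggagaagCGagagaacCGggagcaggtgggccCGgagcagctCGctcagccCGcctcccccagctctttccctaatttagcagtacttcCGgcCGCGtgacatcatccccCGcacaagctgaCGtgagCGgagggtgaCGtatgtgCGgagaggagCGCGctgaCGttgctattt
Fos: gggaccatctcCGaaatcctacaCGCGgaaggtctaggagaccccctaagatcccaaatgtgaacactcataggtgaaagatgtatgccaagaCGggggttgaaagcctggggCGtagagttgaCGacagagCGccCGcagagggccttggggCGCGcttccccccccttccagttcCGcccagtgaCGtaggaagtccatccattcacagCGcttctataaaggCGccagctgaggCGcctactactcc
Fosl2: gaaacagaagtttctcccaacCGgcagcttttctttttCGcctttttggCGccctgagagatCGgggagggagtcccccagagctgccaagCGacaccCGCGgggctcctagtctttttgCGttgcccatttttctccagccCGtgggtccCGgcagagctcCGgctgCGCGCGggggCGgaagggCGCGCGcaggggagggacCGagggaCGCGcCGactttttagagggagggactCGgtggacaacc
These stretches hold between 15 (Fos) and 28 (Dusp1) CG dinucleotides each. The full palindromic form of the cAMP response element, TGACGTCA, was searched on both strands. It had 1 match in the Dusp1 stretch and none in the other 5. It matched in 1.98% of the 20063 stretches of this length before protein-coding start sites. Partial and variant forms of the element were not searched, so these counts do not tell whether a stretch holds one. TATAAA, also searched on both strands, matched once in the Fos stretch and in 11.7% of all.

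The mark covered much of the marker genes of cortical neurons, and it was not particular to them. Among glutamatergic neuron markers, a median of 32.8% of the gene body was covered in untreated neurons and 35.1% with KCl (14 genes). Cux1, a transcription factor of upper-layer neurons, held 52.6 kb and 60.9 kb of H3K4me1 in its body and 5 kb flanks. Covered length was greater with KCl at 10 of the 14 genes and smaller at 4, among them Bcl11b (66.3 kb and 61.5 kb). GABAergic markers had medians of 30.4% and 30.9% (13 genes), and Vip was at 0 in both lists. Over all 20665 protein-coding genes the medians were 7.58% and 7.91%. Microglia markers had medians of 2.84% and 3.53% (10 genes), and Tmem119 held 0.529 kb in the untreated list and 0 with KCl. Of the 10, 6 had more with KCl and 4 less, and their summed length was 26.0 kb and 29.3 kb. Non-neural genes had medians of 0.0878% and 1.62% (13 genes), both the values of Tnnt2. Their summed length was 13.3 kb and 13.2 kb, with 4 genes at more and 6 at less with KCl. Genes of other neural cells and of all cells also carried it. Neural progenitor genes had medians of 32.0% and 34.9%, housekeeping genes 30.8% and 34.9%, astrocyte genes 19.7% and 15.7%, and oligodendrocyte lineage genes 16.4% and 17.2%. In summed length the 10 astrocyte genes had 75.7 kb and 74.5 kb and the 9 oligodendrocyte lineage genes 66.1 kb and 65.7 kb. S100b and Mag were at 0 in both lists. Endothelial genes had medians of 6.77% and 5.79% and summed to 45.2 kb and 42.4 kb. A region in a peak list does not tell how many cells carry it, and the part of these other cells in the differences was not tested.

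H3K4me1 covered slightly more of the genome with KCl. The untreated regions covered 175.6 Mb and the KCl regions 181.1 Mb, 1.03 times as much, or 7.33% and 7.55% of the 2397 Mb spanned. The number of regions was 1.01 times as high. Median width was 602 bp (quartiles 331 and 1166) in untreated neurons and 611 bp (331 and 1192) with KCl. Wide regions were more numerous with KCl, with 1562 untreated and 1770 KCl regions of at least 5 kb, and 119 and 162 of at least 10 kb, but 6 and 4 of at least 20 kb. Of the 19 chromosomes, 18 had more covered length with KCl, and the ratio ran from 0.993 on chromosome 7 to 1.07 on chromosome 16. The KCl list also held more of the strongest regions, with 7155 at a −log10 q of 50 or more against 5759. These q values are the authors', and without read counts a higher signal cannot be told apart from deeper sequencing.

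Most regions were found in both conditions. A region was called shared when it overlapped the other list by at least 1 bp. Of the untreated regions, 154969 (81.7%, exact 95% interval 81.6 to 81.9) were shared and 34607 were not. Of the KCl regions, 150135 (78.7%, 78.5 to 78.9) were shared and 40597 were not, 1.17 times the number found in untreated neurons only. These Clopper-Pearson intervals cover counting error alone. The rule was rarely decided at its edge. Within 50 bp of it, 1303 untreated and 1307 KCl regions were shared by at most 50 bp, and 987 and 974 missed the other list by no more than that. A shared untreated region had a median of 91.3% of its bases in common with the KCl list, and a shared KCl region 88.4% with the untreated list.

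More of the differing length lay around shared regions than in regions of 1 list. The lists had 142 Mb in common. Untreated-only regions held 11.7 Mb and KCl-only regions 13.6 Mb. The parts of shared regions that the other list did not cover came to 21.9 Mb in untreated neurons and 25.4 Mb with KCl. Where exactly 1 region faced 1 region (117165 pairs), the KCl region was wider in 61297 (52.3%) and the untreated region in 55614. The median width ratio was 1.01, with quartiles of 0.84 and 1.24. At least doubled width was seen in 6715 pairs, and a ratio of 0.5 or lower in 5605. Summits of paired regions lay a median of 101 bp apart.

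**Figure D1:**
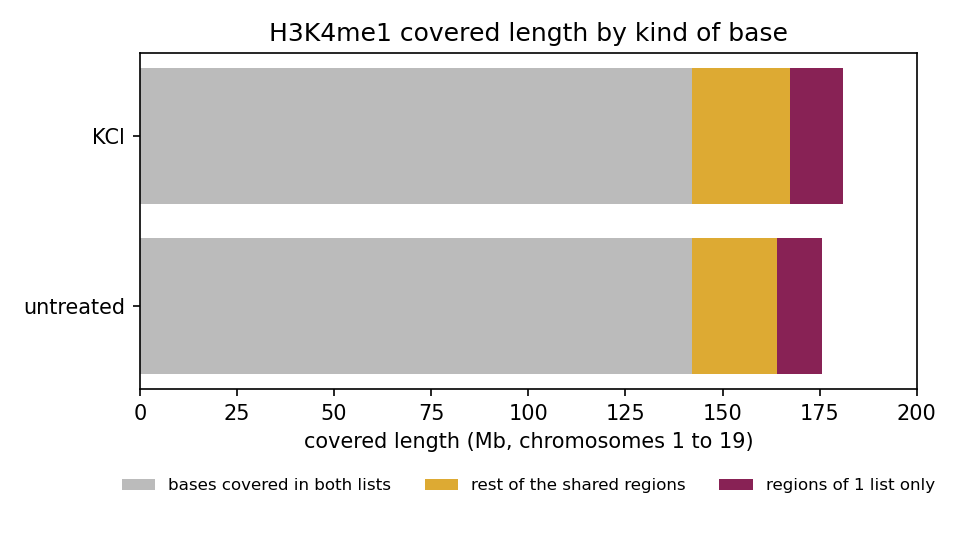
Covered length in Mb on chromosomes 1 to 19 for the untreated and the KCl list, split into bases covered in both lists (grey), the rest of shared regions (yellow) and regions of 1 list only (purple). The grey part is 142 Mb in both bars, and the yellow part is longer than the purple part in each.

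Regions of 1 list were narrow and weak. Their median width was 287 bp in both lists, against 747 bp for shared untreated and 795 bp for shared KCl regions. Their median fold enrichment at the summit, the authors' ratio over local background, was 3.02 in untreated neurons, where shared regions had 4.62. In the KCl list it was 3.18 against 4.77. Among regions with a −log10 q under 2, 51.4% (untreated) and 56.7% (KCl) had no counterpart. Between 10 and 20 the shares were 1.77% and 3.20%. Between 20 and 50 only 8 of 30755 untreated and 26 of 33582 KCl regions stood alone, and at 50 or more 0 of 5759 and 0 of 7155 did, which allows shares of up to 0.064% and 0.052% (upper bounds of the exact 95% interval). No region of 2 kb or wider was without a counterpart (0 of 18373 and 0 of 19705). In 6 of the 7 classes of q the share was higher for the KCl list, the exception being the strongest class, where both were 0. Because 1 bp in common is enough, a wide region is likelier to count as shared. Median width also rose with q, from 266 bp in the weakest untreated class to 2949 bp in the strongest. The contrasts in width and q are thus partly set by the overlap rule, and q was not compared at matched width.

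**Figure D2:**
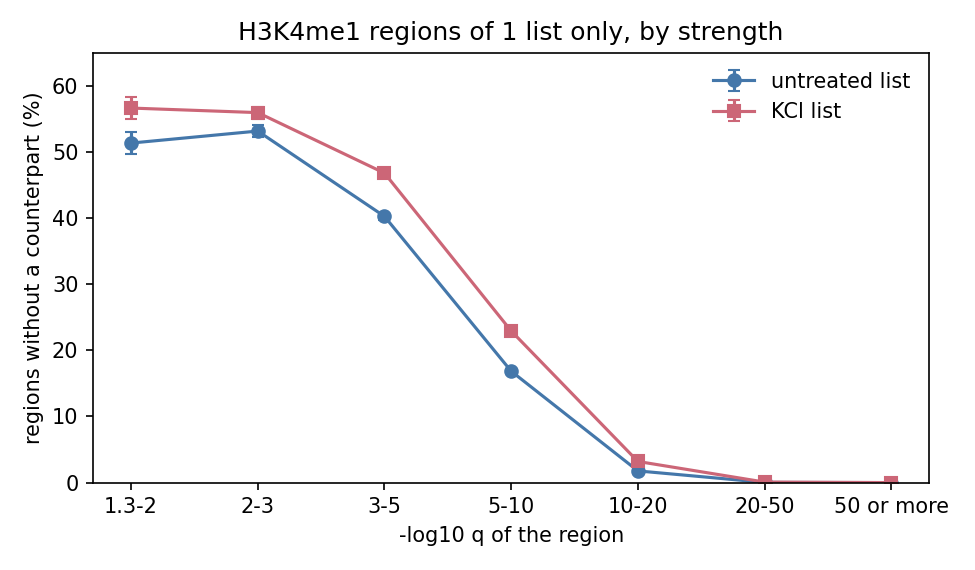
Percentage of regions without a counterpart in the other list, by class of −log10 q, for the untreated (circles) and KCl (squares) lists, with exact 95% intervals. The share falls from over 50% in the weakest classes to 0 at a −log10 q of 50 or more, and the KCl points lie above the untreated points up to the class from 20 to 50.

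List-only regions often lay close to a region of the other list. The median gap to the nearest region of the other list was 1259 bp for untreated-only and 1185 bp for KCl-only regions, and 45.7% and 46.8% lay within 1 kb. Around Add2, which encodes the cytoskeletal protein beta-adducin, the KCl list held 1 region of 31788 bp (chr6:86044102-86075889), the widest of that list. The untreated list held 3 regions in that space, the widest of 19263 bp. The widest untreated region lay in Nfix, a transcription factor of neural development, and measured 25556 bp (chr8:84729394-84754949) against 25694 bp with KCl. Npas4, an activity-induced transcription factor, sat in a region of 20055 bp in untreated neurons and 20156 bp with KCl. In Nav2, a gene of axon outgrowth, 1 untreated region of 21518 bp faced 3 KCl regions, the widest of 10965 bp.

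The strongest regions of 1 list were still modest beside shared ones. The strongest untreated region lay 38533 bp from the nearer end of Cstad, with a −log10 q of 213.9, and the strongest KCl region was its counterpart, at 250.2. The KCl-only list was led by a 492 bp region 370 bp outside Upf2, a nonsense-mediated decay factor (chr2:5950831-5951322, −log10 q of 31.4). Others near a start site lay at Bclaf1, a splicing-associated factor (452 bp from the start site, 22.8), Ttll5, a polyglutamylase (151 bp, 22.8), and Paqr7, a membrane progestin receptor (555 bp, 24.6). Of the 10 strongest KCl-only regions 5 lay within 1 kb of a start site, the fifth being in Hsph1 at 10 bp. Of the 9 strongest untreated-only regions with a measured distance, 1 did, in Bet1 (677 bp). Over all regions of each class the shares were 2.83% for KCl-only and 2.05% for untreated-only regions. The untreated-only list was led by Wasf3, an actin regulator (chr5:146452961-146453688, 28618 bp from a start site, 24.0), and then held Smurf1, a ubiquitin ligase, and Mgll, which degrades the endocannabinoid 2-AG, each at 21.9. Gabrg3, a GABA-A receptor subunit, was also among these 10, with a region 406346 bp from a start site (20.1).

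Place in the genome was much the same for all classes, with a small tilt of KCl-only regions to intergenic space. By midpoint, 57.3% of shared untreated and 57.4% of shared KCl regions lay in protein-coding gene bodies, which make up 41.0% of the span. The share was 57.4% (56.9 to 57.9) for untreated-only regions and 55.3% (54.9 to 55.8) for KCl-only regions. Intergenic midpoints made up 34.8% and 36.8%. In bases, gene bodies went from 10.97% to 11.26% covered, 1.03 times as much, and intergenic space from 4.44% to 4.62%, 1.04 times. Within gene bodies of at least 10 kb (10549 genes counted) the difference was largest at the 5′ end. Pooled over bases, the ratio of KCl to untreated was 1.07 in the first 10% of the length. It was 1.04 in the second 10% and between 0.999 and 1.02 in the others. The first 10% of the length was 29.4% covered on average in untreated neurons and 31.7% with KCl, and the last 10% was 7.22% and 7.10% covered.

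Regions of 1 list seldom met the other antibodies' regions. H3K27ac regions of the same condition overlapped 34.6% of shared untreated and 34.4% of shared KCl regions. They overlapped 6.65% of untreated-only and 6.99% of KCl-only regions. H3K27ac regions of the other condition overlapped 5.58% of untreated-only and 7.52% of KCl-only regions. Width moves with this overlap. Narrow regions of similar width formed a class with medians of 264 to 296 bp. There the same-condition shares were 13.0% and 10.8% for shared regions and 6.04% and 6.57% for list-only regions. Gtf3c1 regions of the same condition overlapped 4.39% of untreated-only and 5.62% of KCl-only regions, against 26.6% of shared untreated and 21.2% of shared KCl regions. In the narrow class this contrast was 8.23% of shared against 3.85% of list-only regions in untreated neurons, and 5.50% against 5.07% with KCl.

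Coverage around start sites was higher with KCl, and most so in ratio at the start of the gene. RefSeq promoter windows gave 20063 start sites of 16437 protein-coding genes, so that some genes count more than once. In both lists coverage peaked on each side of the start site and dipped just inside the gene. At 500 bp upstream, 36.8% of sites were covered in untreated neurons and 39.1% with KCl. At 1250 bp downstream, 40.8% and 43.1% were. At the start site the shares were 28.3% and 32.4%, and at the low point 250 bp downstream 23.55% and 26.97%. The ratio of KCl to untreated coverage was 1.14 at the start site and at the low point and 1.06 at both flanking peaks, so the dip was shallower with KCl.

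**Figure D3:**
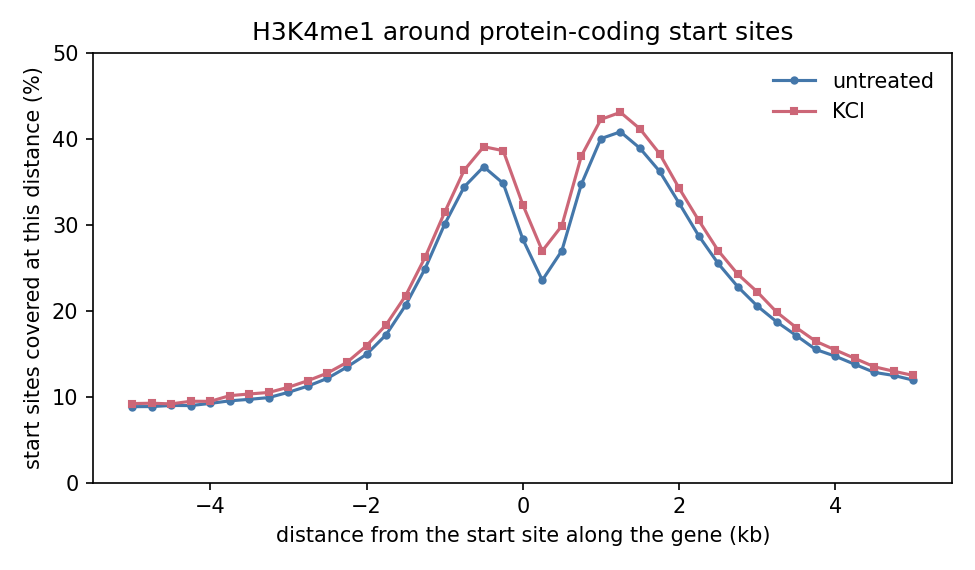
Percentage of the 20063 protein-coding start sites covered by H3K4me1 at each distance along the gene in kb (negative is upstream), untreated (circles) and KCl (squares). Both lines have 2 peaks with a dip at the start of the gene, where the lines lie farthest apart in ratio (23.55% and 26.97% at 250 bp).

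A start site was covered in both lists at 4926 sites (24.6%) and in neither at 12811. The KCl list alone covered 1566 sites (7.81% of all) and the untreated list alone 760 (3.79%). Most of these sites had a region of the other list on both sides. Of the 1566 sites, 940 (60.0%) had an untreated region on both sides within 1 kb and 90 (5.75%) had none on either side. Of the 760 sites, 419 (55.1%) had a KCl region on both sides and 97 (12.8%) none. Only 318 of the 1566 sites (20.3%) and 206 of the 760 (27.1%) lay in a region of that list alone. At 4931 sites covered in neither list, both lists had a region within 2 kb on each side. There the gap between the flanking regions had a median of 1189 bp in untreated neurons and 1072 bp with KCl, and it was narrower with KCl at 3334 (67.6%) and wider at 1591 (32.3%).

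The excess of KCl-only over untreated-only sites was larger at CG-rich promoters. Among start sites with under 5 CG dinucleotides in the 300-base window, 1.47% were covered in the KCl list only and 1.21% in the untreated list only. With 10 to 19 the shares were 11.5% and 5.36%, and with 30 or more 12.3% and 4.80%. H3K27ac regions were also more frequent with KCl in every class of start site. An H3K27ac region lay within 1 kb of 83.0% of the KCl-only sites in untreated neurons and of 87.9% with KCl. The shares were 67.5% and 71.3% at untreated-only sites, 64.4% and 76.8% at sites covered in both lists, 45.2% and 46.9% at sites covered in neither, and 53.7% and 58.4% over all sites. The part of CG content and H3K27ac in the result was not tested. TGACGTCA was found in 3.19% of KCl-only and 3.55% of untreated-only windows and in 2.30% of all windows. The AP-1 motif TGANTCA was found in 4.41%, 5.53% and 7.06%.

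**Figure D4:**
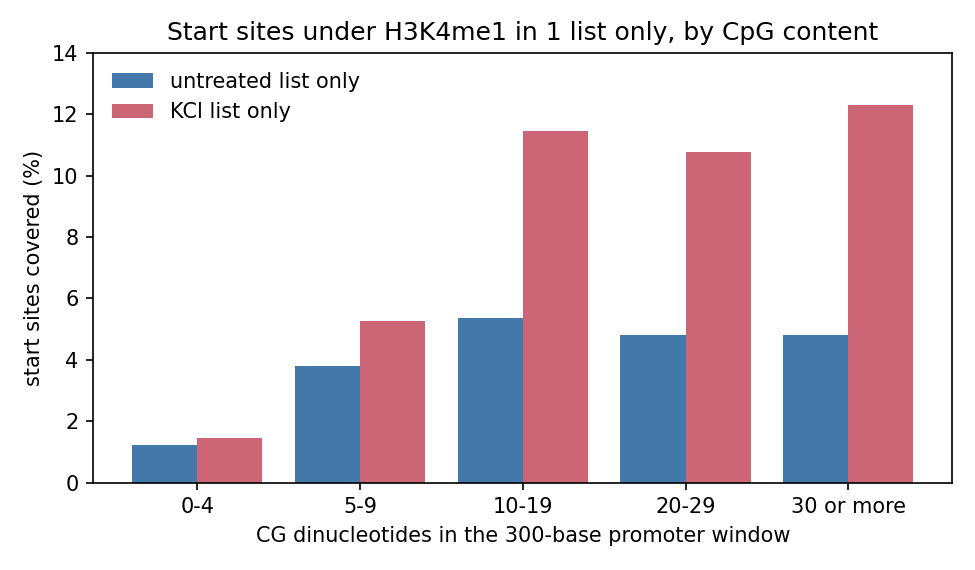
Percentage of start sites covered by H3K4me1 in the untreated list only and in the KCl list only, by the number of CG dinucleotides in the 300-base promoter window. The bars are nearly level below 5 (1.21% and 1.47%), and the KCl bar is the taller from 10 upward.

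Immediate-early genes, which neurons induce within minutes of depolarization, carried H3K4me1 in both conditions. All 34 listed genes had regions in both lists, and a median of 55.4% of the gene body was covered in untreated neurons and 54.2% with KCl. Covered length in the gene and 5 kb flanks was greater with KCl at 21 genes and smaller at 13. Over all 20665 protein-coding genes it was greater at 48.3% and smaller at 32.8%. Of these, 3909 had no region in either list and so could not differ. Among the 16756 genes with a region it was greater at 9971 and smaller at 6775. A gene was called when covered length differed by at least 1.5 times and 1 kb, which 1.98% of all genes met with more and 0.915% with less. Klf10, a transcription factor of growth factor responses (2.21 kb untreated, 3.59 kb with KCl), and Crem, a cAMP-responsive factor (1.37 kb and 2.86 kb), met it with more, and none of the 34 with less. Homer1, whose short form is an activity-induced scaffold of glutamate receptors, came close, with 16.7 kb in 22 regions and 24.5 kb in 31 regions, 13 of them KCl-only. Fos differed little in length (7.29 kb and 7.27 kb), as did Npas4 (20.5 kb and 20.2 kb) and Junb (8.38 kb and 8.34 kb). Arc, a regulator of synaptic strength, had 6.17 kb and 5.69 kb. Fosl2 had 13.6 kb and 11.4 kb, and Csrnp1, a nuclear factor, 10.3 kb and 7.96 kb.

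At several of these genes the position of the regions around the start site differed between the lists. At Fos, an AP-1 subunit, the untreated list had a region from 3102 bp upstream to 86 bp downstream of the start site and another from 335 bp to 3680 bp downstream. With KCl the upstream region ended 384 bp before the start site and the next began 782 bp inside the gene. The uncovered stretch thus measured 248 bp in untreated neurons and 1165 bp with KCl. Fosb, its paralog, was covered at the start site in neither list, and its gap was 359 bp and 1456 bp. Junb, another AP-1 subunit, differed otherwise. Its untreated gap ran from 53 bp upstream to 203 bp downstream of the start site, whereas with KCl a region reached from 2675 bp upstream to 240 bp downstream and gaps of 529 bp and 345 bp followed inside the gene. At Dusp1, a phosphatase of MAP kinases, the gap began 116 bp upstream of the start site and ended 943 bp downstream in untreated neurons. With KCl it began 410 bp and ended 1136 bp downstream. At Dusp5, a second such phosphatase, the downstream region began 193 bp inside the gene in untreated neurons and 19 bp before the start site with KCl. Homer1 had a KCl-only region of 272 bp on its upstream start site. At Fosl2 an untreated-only region of 619 bp lay on it.

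Over the list, 38 start sites of 27 immediate-early genes were matched. The start site was covered in both lists at 14, with KCl only at 4, in untreated neurons only at 2 and in neither at 18. The KCl-only and untreated-only counts are 4 and 2 of 38, near the 7.81% and 3.79% of all sites. At 12 of the sites covered in neither list, which include 4 at Egr2 in 1 gap, the gap could be measured in both. It was wider with KCl at 8 and narrower at 4 (5 genes against 4), where 32.3% of all such sites were wider and 67.6% narrower. Besides Fosb the wider gaps were Egr2 (757 bp and 856 bp), Csrnp1 (222 bp and 303 bp), Gadd45b (386 bp and 395 bp) and Maff (601 bp and 603 bp), of which the last 2 differ by under 10 bp. The narrower were Klf4 (1363 bp and 867 bp), Btg2 (680 bp and 403 bp), Nr4a2 (658 bp and 453 bp) and Srf (1765 bp and 1637 bp). In the first kb after the start site, mean coverage of the 38 sites was 69.5% and 66.7%, although it was higher with KCl at 15 sites (39.5%) and lower at 9 (23.7%). Over all sites the mean was 29.7% and 32.8%, with 34.1% higher and 20.9% lower. In the kb before the start site the 38 sites had means of 60.1% and 63.0%. The gap measure was chosen after the values at Fos had been seen.

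Delayed activity-regulated genes, which follow the first wave, showed no called gene among 20. Covered length was greater with KCl at 11 and smaller at 9. Bdnf, a secreted growth factor, had 12.3 kb and 13.7 kb, Inhba, an activin subunit, 9.31 kb and 11.2 kb, Scg2, a granin, 5.28 kb and 3.93 kb, and Nptx2, a synaptic pentraxin, 7.82 kb and 6.15 kb. Start sites of Scg2, Pcsk1, Plk3 and Bach2 were covered in untreated neurons only, and none of the 23 matched sites with KCl only, where 3.79% and 7.81% of all sites were. Synaptic genes were greater at 13 and smaller at 9 of 22. Of their 22 matched start sites, 4 were covered with KCl only, those of Syt1, the calcium sensor of transmitter release, Pclo, an active zone scaffold, Dlgap1, a postsynaptic scaffold, and 1 of Syn2, a synaptic vesicle protein. Another start site of Syn2 was covered in untreated neurons only. Of 18 potassium and calcium channel genes, 7 had more and 11 less, from Cacna2d1, a calcium channel subunit, with 54.1 kb and 73.3 kb, to Kcnma1, the BK channel, with 121.5 kb and 112.6 kb. Among 16 genes of the H3K4 methylation machinery 13 had more and 3 less. Kmt2d had 5.80 kb and 8.31 kb and Kmt2c 4.06 kb and 4.89 kb. Housekeeping genes gave the same counts, 13 and 3 of 16. Of the 16756 protein-coding genes with a region in either condition, 9971 had more and 6775 less (48.3% and 32.8% of all genes). No gene of these lists met the 1.5-fold rule.

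Over all 20665 protein-coding genes, 16301 (78.9%) had a region in the body or flanks in both lists, and 3909 in neither. The KCl list alone had one at 224 genes (1.08%) and the untreated list alone at 231 (1.12%). The ratio of KCl to untreated length had a median of 1.04 with quartiles of 0.93 and 1.17. Under the 1.5-fold rule 409 genes had more (1.98%) and 189 less (0.915%). With regions at a q of 1e-05 or lower in both lists, 719 had more and 283 less. Of the 409, the largest difference in bp was at Zbtb10, a zinc finger gene, with 12908 bp and 19757 bp. Of the 189 it was at Fhad1, with 19386 bp and 11268 bp. These last 2 genes were chosen after their values were seen.

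The largest differences in kb were at long genes, where they added to a length already large. Celf2, an RNA-binding splicing regulator, held 374.1 kb in 291 regions in untreated neurons and 442.7 kb in 295 regions with KCl, and the covered part of its body went from 43.1% to 51.0%. Tenm2, a synaptic adhesion protein, had 316.2 kb and 374.4 kb. Plxna4, a semaphorin receptor of axon guidance, had 162.4 kb and 209.3 kb. Dlg2, a postsynaptic scaffold, had 247.1 kb and 288.0 kb, and Ptprd, a receptor phosphatase of synapse formation, 122.7 kb and 160.5 kb. Ptprk, a related phosphatase, had the highest ratio of these 10 genes (73.2 kb and 109.0 kb, 1.49 times), with 93 regions in untreated neurons and 149 with KCl. Ldb2, Dab1 and Macrod2 were also among them. KCl-only regions held 29.6 kb of the Celf2 domain and 25.1 kb of that of Ptprk. Their untreated-only regions held 6.61 kb and 4.79 kb.

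Losses were smaller. Msi2, an RNA-binding protein of progenitors, had 94.6 kb and 76.6 kb, and Gabbr2, a GABA-B receptor subunit, 96.6 kb and 80.3 kb. Grik3, a kainate receptor subunit, had 74.2 kb and 59.7 kb. Hs3st4, a heparan sulfate sulfotransferase, had the lowest ratio of the 10 (44.6 kb and 30.5 kb, 0.68 times), with 19 of its 56 untreated regions absent from the KCl list. Agap1, Kirrel3, Nav2, Cdh13, Ldlrad3 and Sorcs2 completed them. None of these 20 genes met the 1.5-fold rule. Among the 533 genes of at least 300 kb, 341 had more and 189 less, and their summed length was 1.05 times as large with KCl, against 1.01 times for genes of 100 to 300 kb and 1.05 times for genes under 10 kb.

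**Figure D5:**
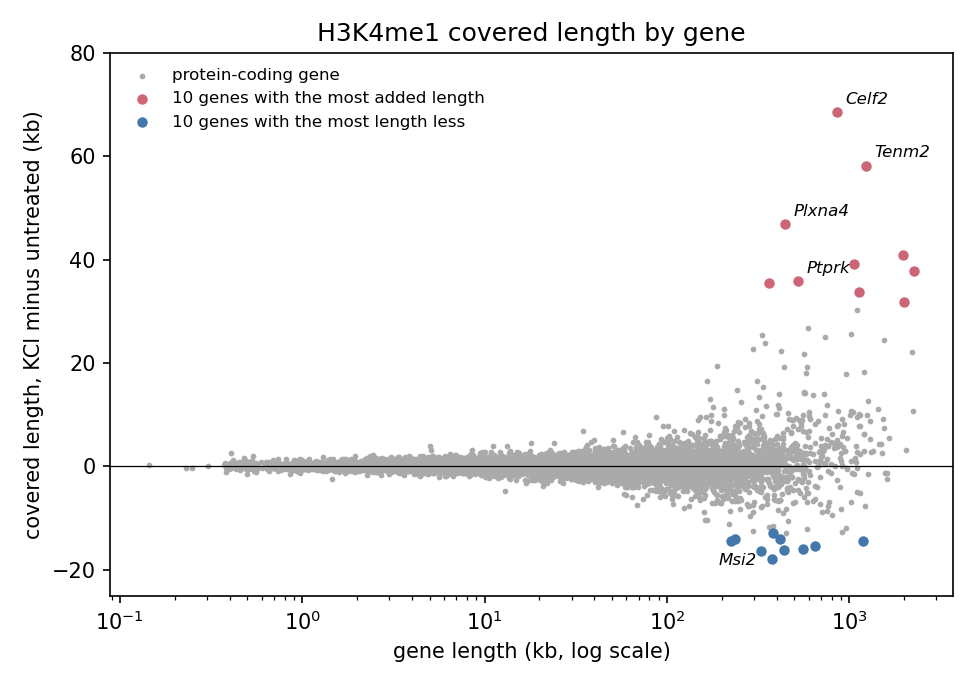
Difference in H3K4me1 covered length (KCl minus untreated, kb) in the gene body and 5 kb flanks against gene length in kb (log scale), 1 point for each protein-coding gene with a region in either list. The 10 genes with the most added length (red, up to 68.6 kb at Celf2) lie farther from 0 than the 10 with the most length less (blue, down to -17.95 kb at Msi2), and all 20 are long.

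At most of these genes Gtf3c1 differed in the same direction as H3K4me1, whereas H3K27ac was mostly smaller with KCl on both sides. H3K27ac length was smaller with KCl at 9 of the 10 genes with the most added H3K4me1, as it was at 67.5% of the 533 long genes. At Celf2 it was 352.3 kb and 322.7 kb, and at Tenm2 101.8 kb and 75.2 kb. Ptprk was the exception, with 24.5 kb and 25.4 kb. At the 10 genes with the most length less, H3K27ac was smaller at 9, with Msi2 the exception (22.9 kb and 38.1 kb). Gtf3c1 length was greater with KCl at 9 of the 10 genes with added H3K4me1, where 21% of the long genes had more. Celf2 had 143.7 kb and 242.6 kb of Gtf3c1, Plxna4 37.4 kb and 81.8 kb, and Ptprk 20.2 kb and 52.0 kb, while Macrod2 had 21.2 kb and 15.6 kb. It was smaller at 9 of the 10 genes on the other side, the exception being Nav2. Of the 533 long genes 77.7% had less, but Grik3 and Ldlrad3, among the 10, are under the 300 kb limit of that set. The antibodies were separate immunoprecipitations. The sources used here do not say whether their libraries came from the same cultures, and the part of shared chromatin in the common direction was not tested.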

How the data were processed

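Each list is a MACS2 narrowPeak table of 1 antibody and condition. The submitters' processing notes name Bowtie2, MACS2 and the build GRCm38/mm10, without versions. Fold enrichment, as deposited, is a ratio of the summit to the background around it. The authors' −log10 p and −log10 q come from the peak caller. Their deposited score is the −log10 q times 10, rounded down. The lowest −log10 q was 1.31 in both lists, a threshold of q = 0.05. No read counts are given, so depth is unknown.

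Regions on chromosomes 1 to 19 were compared by overlap of at least 1 bp, with Python 3.11.15, numpy 2.4.6, pandas 2.3.3 and scipy 1.17.1, and the interval functions were tested on simulated data. Shares carry exact Clopper-Pearson 95% intervals (counting error only). With 1 list per condition no test across replicates exists, so genes were called by size: at least 1.5 times and 1 kb of covered length in the body and 5 kb flanks. Genes (20665 protein-coding) came from a RefSeq table of GRCm38.p6, and start sites and strand from its promoter table, which lacks chromosome 18. Of 244 listed genes, 235 were on these chromosomes. The gene lists were immediate-early, delayed activity-regulated, synaptic, channel, glutamatergic, GABAergic, astrocyte, oligodendrocyte lineage, microglia, endothelium, neural progenitor, non-neural, Hox, H3K4 methylation and housekeeping genes.

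Named genes are list members, the strongest and widest regions of each class (each by the gene that holds the midpoint or has the nearest end), and the 10 genes with the largest difference each way; predicted models were left unnamed, and some named genes are not reported here. Members and lists were chosen with earlier results of these data known. Alternatives were a stricter q, a 50% overlap, equal list lengths, joined regions, X and Y, the gene body alone, a fold of 2 and the summit as position. No columns of per-sample values were left unused (0).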

Additional observations from a re-analysis of the deposited data

How the results depend on the processing

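Covered length was greater with KCl in each setting in which its ratio was computed. Of 58 values under another setting, 35 stayed near the reported value. For a count, near means within 1.5 times, and for a share, within the exact 95% interval of the reported value. For the ratio it means equal when rounded to 2 decimals. Shares of shared regions (81.7% untreated, 78.7% KCl) were 83.7% and 79.6% at a q of 1e-05 or lower in both lists, 78.4% and 75.6% when at least 50% of the shorter region had to overlap, 81.5% and 78.9% with equal numbers of regions, and 83.1% and 81.0% with regions up to 500 bp apart joined. With X and Y the KCl share was 78.5%. With the q limit on the counted list alone, an alternative added after seeing the data, they were 92.6% and 90.1%, leaving 9920 untreated-only and 13379 KCl-only regions. With the limit on both lists 21684 regions were untreated-only and the covered length ratio was 1.04. The share of list-only regions in gene bodies (57.4% untreated, 55.3% KCl) was 56.7% and 53.7% under the q limit and 55.5% and 52.3% with joining, and 56.0% for KCl with the 50% overlap. Genes with more length numbered 719 under the q limit, against 409 reported, and genes with less 283, against 189. At 2 times, 89 genes had more and 56 less. In each setting run, KCl-only regions outnumbered untreated-only ones and more genes had added than lost length. No paired analysis was possible because each condition has 1 list. Depth is unknown, and a difference between 2 lists cannot be set against a replicate spread.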

Other observations

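All 10 neural progenitor genes and 18 of 20 Hox genes also held H3K4me1 in both lists. Hoxb1 was at 0 in both lists, and Hoxb4 held 0.299 kb in the untreated list and 0 with KCl. Of 10 neural progenitor genes, 9 had more H3K4me1 with KCl and 1 less. Of the 16756 protein-coding genes with a region in either list, 9971 had more and 6775 less (48.3% and 32.8% of all genes). Pax6, a progenitor transcription factor, had 8.38 kb and 10.1 kb, and Vim, an intermediate filament gene, 3.55 kb and 4.88 kb, with its start site covered in the KCl list only. Nes was the 1 with less (4.43 kb and 3.59 kb). Of 20 Hox genes, 12 had more and 7 less, with medians of 1.21 kb and 1.25 kb. Hoxd13 had 1.27 kb and 1.15 kb. Its start site was covered in the KCl list only, by a shared region of 535 bp. The untreated counterpart of that region began 30 bp downstream of the start site. No gene of either group met the 1.5-fold rule.

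Chromosome X was outside the comparison. It held 2639 untreated and 2940 KCl regions, and its covered length was 1.14 times as large with KCl, above the range of 0.993 to 1.07 over chromosomes 1 to 19. Of its regions 23.6% were untreated-only and 33.5% KCl-only. The highest values on the other chromosomes were 19.4% and 24.3%. The cause was not tested.

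In windows of 1 Mb (2144 with at least 10 kb covered in untreated neurons), 1413 (65.9%) had more covered length with KCl. The ratio was between 0.90 and 1.27 in the central 90% of windows.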
